A study of Mus musculus with 3 samples.

Results

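The genes described here are 10 factors of cytoplasmic mRNA decay, Zfp36, Zfp36l1, Zfp36l2, Btg1, Cnot1, Cnot6, Cnot7, Xrn1, Dcp2 and Pabpc1, taken by symbol from the 32285 genes listed for mouse embryonic stem cells exposed to tubercidin. All 10 were found, and each had UMIs in the called cells of every library. They were selected on their CPM ratios between these same libraries (CPM, UMIs of a gene scaled to a library total of 1000000; a UMI is 1 captured RNA molecule), so the values below describe them and no difference was tested. Of the 10, 8 averaged 10 CPM or more over the 3 libraries, as did 7884 genes in all, called the tested genes below although their ratios carry no test. Zfp36 (mean 2.24 CPM) and Zfp36l2 (mean 5.75 CPM) were below that level and are described with the rest.

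The cells were of the E14 line on a 129/Ola background, an established embryonic stem cell line kept in medium with serum and leukaemia inhibitory factor. Tubercidin, an adenosine analogue, was used at 10 uM, over 3 h in the first treated culture and over 6 h in the second. The control had the solvent DMSO for 6 h, so the 3 h culture differed from it in the length of exposure as well. Each condition was 1 library of 10x Genomics 3' single-cell RNA sequencing, with 2031, 2365 and 2926 called cells (control, 3 h, 6 h). With 1 library per condition the spread between cultures is unknown, no p-value is given, and the exact 95% intervals printed here reflect counting error alone.

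Most mRNAs are destroyed from the tail inward. A sequence-specific protein or an adaptor brings the CCR4-NOT deadenylase complex to the mRNA, the poly(A) tail and the poly(A)-binding proteins on it are lost, DCP2 removes the cap, and XRN1 digests the body of the RNA from its 5' end. ZFP36 (tristetraprolin), ZFP36L1 and ZFP36L2 are CCCH zinc-finger proteins that bind AU-rich elements in 3' untranslated regions and contact CNOT1. Their own mRNAs are short-lived, are induced by growth factor and stress signals, and carry AU-rich elements themselves.

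The cells held 104892739, 29892000 and 24681924 UMIs (control, 3 h, 6 h), with a median of 48452, 11877 and 8004.5 per cell. A level in CPM is relative to the library's own total, and in UMIs per cell the RNA content of a cell and the sequencing depth cannot be told apart. The 7 stem cell markers checked, Pou5f1, Sox2, Nanog, Zfp42, Esrrb, Tdgf1 and Dppa5a, were each at 50.2 CPM or more in every library. The summed fibroblast markers were at 0.963 to 2.11 CPM, the 2-cell-like markers at 0 to 1.13 CPM, the primitive endoderm markers at 6.22 to 9.89 CPM (Sox17 at 0 at 6 h), and the trophoblast markers at 27.8 to 38.1 CPM, most of it Krt8; their part in the values below was not tested. Each pair of libraries shared 1 cell barcode.

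The site that ZFP36 proteins are known to prefer, the nonamer TTATTTATT in DNA letters, was looked for in the longest annotated 3' untranslated region of each factor (GENCODE M21, GRCm38, the assembly that mm10 names), on the transcribed strand. It occurred once in each of the 3 Zfp36 family genes and once in Xrn1, and not in Btg1, Cnot1, Cnot6, Cnot7, Dcp2 or Pabpc1. The stretches are shown because they are the candidate binding sites of the family in its own mRNAs, with the nonamer in capitals.
Zfp36, chr7:28376950-28376979, minus strand: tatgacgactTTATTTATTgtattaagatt
Zfp36l1, chr12:80108166-80108195, minus strand: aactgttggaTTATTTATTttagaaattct
Zfp36l2, chr17:84184913-84184942, minus strand: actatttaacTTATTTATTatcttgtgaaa
Xrn1, chr9:96055253-96055282, plus strand: actagaaaagTTATTTATTtgattaagcct
Genes that averaged 10 CPM or more and had a 3' untranslated region of similar length, from 0.8 times as long to 1 / 0.8 times, held the nonamer in 3.58% of cases for Zfp36, 8.13% for Zfp36l1, 8.01% for Zfp36l2 and 20.998% for Xrn1. The shorter heptamer TATTTAT, which lies within the nonamer, occurred 3 times in each Zfp36 family gene, and at least 3 times in 0.716%, 3.14% and 3.16% of the genes of like length. A match describes letters in the annotation and does not show binding in these cells.

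Among the 10 factors, Zfp36l1 had the log2 ratio furthest from 0 at 3 h, while at 6 h Pabpc1 and Zfp36l2 lay further from the control. Zfp36l1 (ENSMUSG00000021127, chromosome 12, 80107754 to 80113013, minus strand) was at 71.9, 15.2 and 35.0 CPM (control, 3 h, 6 h), from 7547, 454 and 865 UMIs. The 3 counting intervals, 70.3 to 73.6, 13.8 to 16.7 and 32.7 to 37.5 CPM, did not overlap, with the control highest and 3 h lowest. Against the control the log2 ratio of CPM + 1 was -2.17 at 3 h and -1.02 at 6 h, and from 3 h to 6 h it was 1.15. Without the added 1 CPM, the level was 4.74-fold lower than in the control at 3 h (log2 interval -2.38 to -2.11) and 2.05-fold lower at 6 h (-1.14 to -0.94), and 2.31-fold higher at 6 h than at 3 h (1.04 to 1.37). Of the 7884 tested genes, 4 had a lower ratio at 3 h. Scaling by the typical gene instead of the library total, with median-of-ratios or TMM factors, kept these directions, but the 6 h ratio against 3 h was then 0.94, below a 2-fold difference.

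The RefSeq sequence before the start of Zfp36l1 (GRCm38.p6, chr12:80113014-80113263, minus strand, the 250 bases before the start, read toward the gene) is shown because it is the promoter of the factor that differed most at 3 h.
Zfp36l1 upstream: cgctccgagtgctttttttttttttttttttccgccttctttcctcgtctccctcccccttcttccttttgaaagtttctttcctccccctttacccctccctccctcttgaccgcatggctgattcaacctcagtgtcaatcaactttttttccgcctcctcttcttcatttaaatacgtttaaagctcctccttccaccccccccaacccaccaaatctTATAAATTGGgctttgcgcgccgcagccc
The capitals mark a TATA box (TATAAA, 29 to 24 bases before the start) that overlaps an inverted CCAAT box by 1 base (24 to 20 bases before). Both strands were searched for these boxes, for the GC box GGGCGG, for the cAMP response half-site TGACG and for the CArG box of serum response factor. Of 32841 promoter stretches of this length, 12.4% held the TATA box and 33.9% the CCAAT box. RefSeq promoters were found for 5 of the 10 factors, Zfp36, Zfp36l1, Btg1, Cnot6 and Xrn1. A CArG box, present in 1.47% of all stretches, was found only in that of Zfp36 among these 5, at 58 to 49 bases before the start, and this RefSeq start lies inside the gene span given below for Zfp36, not at its outer end. Btg1 had a TATA box 26 to 21 bases before its start.

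Zfp36l2 (ENSMUSG00000045817, chromosome 17, 84183931 to 84187947, minus strand), which encodes a closely related AU-rich element binder, was at 9.49, 4.25 and 3.52 CPM (control, 3 h, 6 h), from 995, 127 and 87 UMIs. Both treated libraries lay below the control, and their own intervals, 3.54 to 5.06 and 2.82 to 4.35 CPM, overlapped. The log2 ratio of CPM + 1 was -0.998 at 3 h, just short of 2-fold, and -1.21 at 6 h. Without the added 1 CPM, which understates the ratio of so low a gene, the level was 2.23-fold lower at 3 h (log2 interval -1.44 to -0.89) and 2.69-fold lower at 6 h (-1.76 to -1.11). Unlike that of Zfp36l1, the level of Zfp36l2 was not higher at 6 h than at 3 h, and the interval of the log2 ratio between them, -0.68 to 0.14, held 0.

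Zfp36 (ENSMUSG00000044786, chromosome 7, 28376784 to 28380253, minus strand), the immediate-early member of the family, was rare, with 138, 78 and 69 UMIs or 1.32, 2.61 and 2.80 CPM (control, 3 h, 6 h). Its level was higher in both treated libraries, and their intervals, 2.06 to 3.26 and 2.18 to 3.54 CPM, overlapped each other but not that of the control, 1.11 to 1.55 CPM. Without a pseudocount it was 1.98-fold higher at 3 h (log2 interval 0.57 to 1.40) and 2.12-fold higher at 6 h (0.65 to 1.51), and with 1 CPM added the log2 ratios were 0.64 and 0.71. In UMIs per cell it was lower after treatment, at 0.0679, 0.0330 and 0.0236. In barcodes outside the called cells Zfp36 stood at 1.21, 2.37 and 5.14 CPM, from 13, 13 and 24 UMIs, and no direction is read from counts this low.

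**Figure D1:**
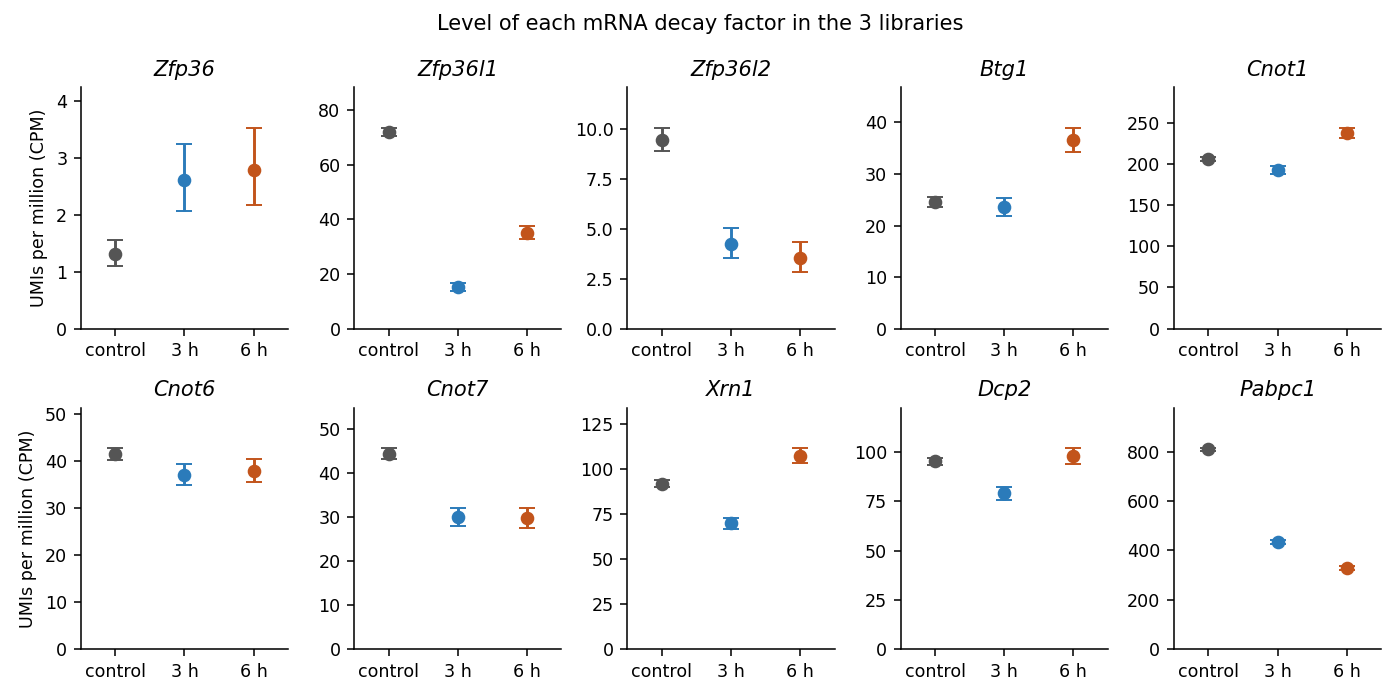
Level of each mRNA decay factor in CPM (UMIs scaled to a library total of 1000000, each panel with its own axis from 0) in the control, 3 h and 6 h libraries; points are the single library of each condition and bars are exact 95% counting intervals. Zfp36l1 stood at 71.9, 15.2 and 35.0 CPM, Pabpc1 was lower at each time, and Cnot1, Cnot6 and Dcp2 differed little.

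Over the 10 factors, the ratio to the control at 3 h was past 2-fold downward for 1, Zfp36l1, and past 2-fold upward for 0. Among all tested genes 5.54% were at least 2-fold lower and 0.888% at least 2-fold higher in that comparison, and over the 13587 genes that average 1 CPM or more, which include all 10 factors, 6.2% and 1.6%. This wider set was added after seeing the data. At 6 h, 3 factors were at least 2-fold lower, Zfp36l1, Zfp36l2 and Pabpc1, and 0 higher, beside 4.41% lower and 2.33% higher among tested genes (5.11% and 4.56% at 1 CPM). Zfp36l1 was close to the 2-fold line there: its 6 h ratio was -0.9997 with the UMI minimum of a cell doubled and -0.997 with free RNA subtracted, which left 2 factors. From 3 h to 6 h, 1 factor was at least 2-fold higher, Zfp36l1, and 0 lower, beside 1.64% higher and 0.165% lower (2.69% and 0.243% at 1 CPM). The factors were picked with these ratios known, so nothing is read from the shares. The median log2 ratio of the 10 factors was -0.33 at 3 h and -0.04 at 6 h, and that of the tested genes was -0.27 and -0.12. The value nearest to the 2-fold line from inside was that of Zfp36l1 at 6 h, -1.02, and from outside that of Zfp36l2 at 3 h, -0.9984.

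**Figure D2:**
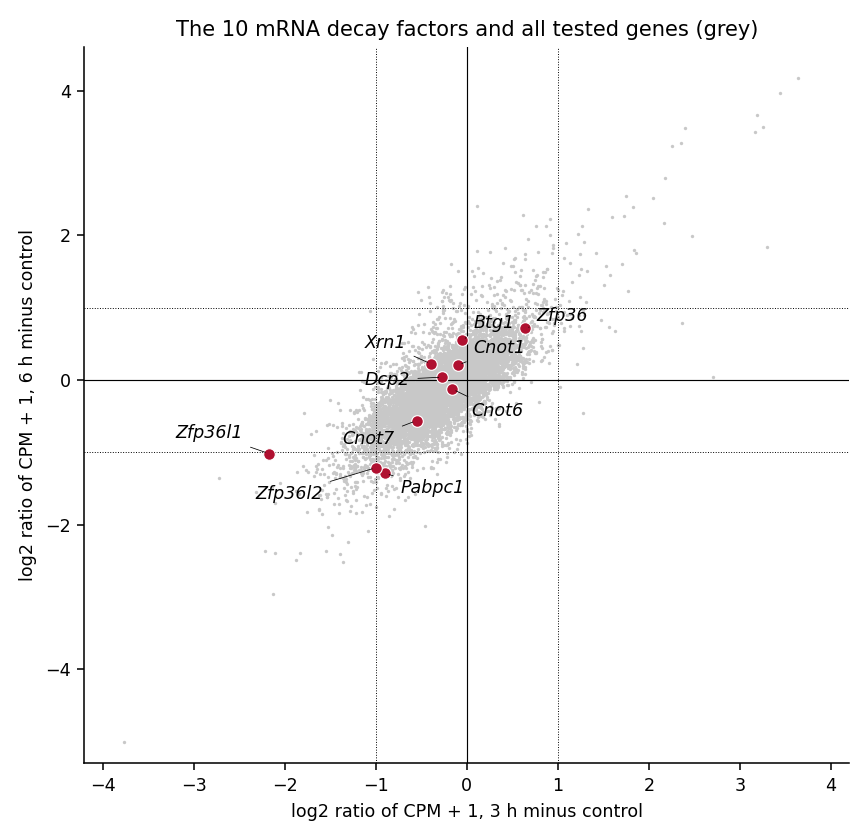
Log2 ratio of CPM + 1 at 3 h minus control (x axis) and at 6 h minus control (y axis) for the 7884 tested genes (grey, mean from 10 CPM up) and for the 10 mRNA decay factors (red, of which Zfp36 and Zfp36l2 have a lower mean); dotted lines mark 2-fold. Both axes share the control library, and Zfp36l1 lies at -2.17 and -1.02, at the edge of the cloud.

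With Zfp36l1 lower and Zfp36 higher in CPM after treatment, the make-up of the family's mRNA differed between the libraries, a measure that no scaling of the libraries can change. The 3 family members summed were at 82.8, 22.0 and 41.4 CPM (control, 3 h, 6 h). Zfp36l1 supplied 86.9% (Clopper-Pearson 86.2 to 87.6%), 68.9% (65.2 to 72.4%) and 84.7% (82.4 to 86.9%) of the family's UMIs in the order control, 3 h, 6 h. The 3 h share lay below the others, whose intervals overlapped. Zfp36 supplied 1.59% (1.34 to 1.88%), 11.8% (9.47 to 14.6%) and 6.76% (5.30 to 8.48%) in the same order, with no overlap between the 3. Zfp36l2 supplied 11.5%, 19.3% and 8.52%, highest at 3 h and, by its intervals, lowest at 6 h. Each protein binds the same kind of site, but how well each mRNA is captured was not measured, so only the change of a share between libraries is described.

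The patterns of the AU-rich element binders were set beside those of 7597 other tested genes with established names, by the Euclidean distance of the pair of log2 ratios over the 3 libraries. For Zfp36l1 no gene came within 0.3. The nearest were Fgf4, a growth factor of stem cells (85.9, 22.9 and 35.1 CPM in the control, 3 h and 6 h; distance 0.398), Arhgef18 (51.3, 14.02 and 21.8 CPM; distance 0.413) and Bcl7a (20.8, 4.25 and 7.17 CPM; distance 0.417). Zfp36l2 had 195 genes within 0.3, led by Znhit3, Trim8 and Mbip, and Zfp36 had 221, led by Rcn3, Thop1 and Mvd. The added 1 CPM shrinks the ratios of these 2 factors more than those of genes that average 10 CPM or more. Without it, Zfp36l2 was at -1.16 and -1.43 and Zfp36 at 0.99 and 1.09 (3 h, 6 h). Their neighbours and counts therefore depend on the added 1 CPM. The measure has 2 values per gene that share a control, and is a description only.

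Btg1 encodes an antiproliferative adaptor that joins poly(A)-binding protein and the CNOT7 deadenylase. Btg1 (ENSMUSG00000036478, chromosome 10, 96617006 to 96622809, plus strand) was at 24.6, 23.6 and 36.5 CPM (control, 3 h, 6 h), from 2577, 706 and 902 UMIs. The control and 3 h did not differ beyond counting error (log2 interval -0.18 to 0.06), and 6 h was higher than both. With median-of-ratios and TMM factors the 3 h log2 ratio, -0.05, became 0.18 and 0.13. The level at 6 h was 1.49-fold higher than in the control (log2 interval 0.46 to 0.68) and 1.55-fold higher than at 3 h (0.49 to 0.77). The genes nearest to it in pattern were Nfic, Plcd3 and Ino80b, among 537 within 0.3.

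Its relatives were lower after treatment in CPM. Btg3 was at 50.2, 28.5 and 27.6 CPM, Tob1 at 16.3, 9.13 and 9.24 CPM, Tob2 at 10.5, 4.68 and 5.75 CPM, and Btg2, a p53-responsive member, at 12.8, 10.3 and 9.48 CPM (control, 3 h, 6 h). Each of these 4 was lower in both treated libraries than in the control. The 3 h log2 ratio of Btg2, -0.28, was close to the median of all tested genes, -0.27. Of the UMIs of the 5 BTG and TOB genes, Btg1 made up 21.5% (20.8 to 22.2%), 31.0% (29.1 to 32.9%) and 41.2% (39.2 to 43.3%).

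Of the CCR4-NOT complex, CNOT1 is the scaffold on which the other subunits and the ZFP36 proteins assemble. Cnot1 (ENSMUSG00000036550, chromosome 8, 95719451 to 95807464, minus strand) was at 206, 193 and 238 CPM (control, 3 h, 6 h), from 21592, 5764 and 5871 UMIs. The intervals, 203 to 209, 188 to 198 and 232 to 244 CPM, did not overlap, with 6 h highest and 3 h lowest. The differences were small, 1.07-fold lower at 3 h (log2 interval -0.14 to -0.05) and 1.16-fold higher at 6 h (0.17 to 0.25). The 3 h log2 ratio, -0.09, became 0.15 with median-of-ratios factors, 0.10 with TMM factors and 0.04 with equal weight for each cell, so no direction is given for it.

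The catalytic subunits of the complex come in pairs of paralogs. CNOT7, like CNOT8, is the CAF1-type nuclease, and Cnot7 (ENSMUSG00000031601, chromosome 8, 40492540 to 40515847, minus strand) was at 44.3, 29.9 and 29.7 CPM (control, 3 h, 6 h). Both treated libraries were lower than the control, 1.48-fold at 3 h (log2 interval -0.67 to -0.46) and 1.49-fold at 6 h (-0.69 to -0.46), and they did not differ from each other beyond counting error (-0.15 to 0.13). Its paralog Cnot8 was at 28.1, 39.9 and 35.0 CPM, higher in both treated libraries. Cnot7 supplied 61.2% (60.1 to 62.3%), 42.8% (40.7 to 45.0%) and 45.9% (43.4 to 48.4%) of the pair's UMIs, while the 2 genes together stood at 72.4, 69.9 and 64.7 CPM.

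CNOT6, like CNOT6L, is the CCR4-type nuclease. Cnot6 (ENSMUSG00000020362, chromosome 11, 49671503 to 49712723, minus strand) was at 41.5, 37.1 and 38.0 CPM (control, 3 h, 6 h). The treated libraries did not differ from each other beyond counting error (log2 interval -0.09 to 0.16) and lay slightly below the control, with log2 ratios of -0.16 and -0.12. The 3 h ratio became 0.08 with median-of-ratios and 0.03 with TMM factors. Cnot6l was at 21.1, 13.0 and 11.5 CPM, and Cnot6 supplied 66.3% (65.2 to 67.5%), 74.0% (71.7 to 76.2%) and 76.8% (74.3 to 79.1%) of this pair's UMIs. Of the 2 pairs, the share of the listed factor was lower after tubercidin for Cnot7 and higher for Cnot6.

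**Figure D3:**
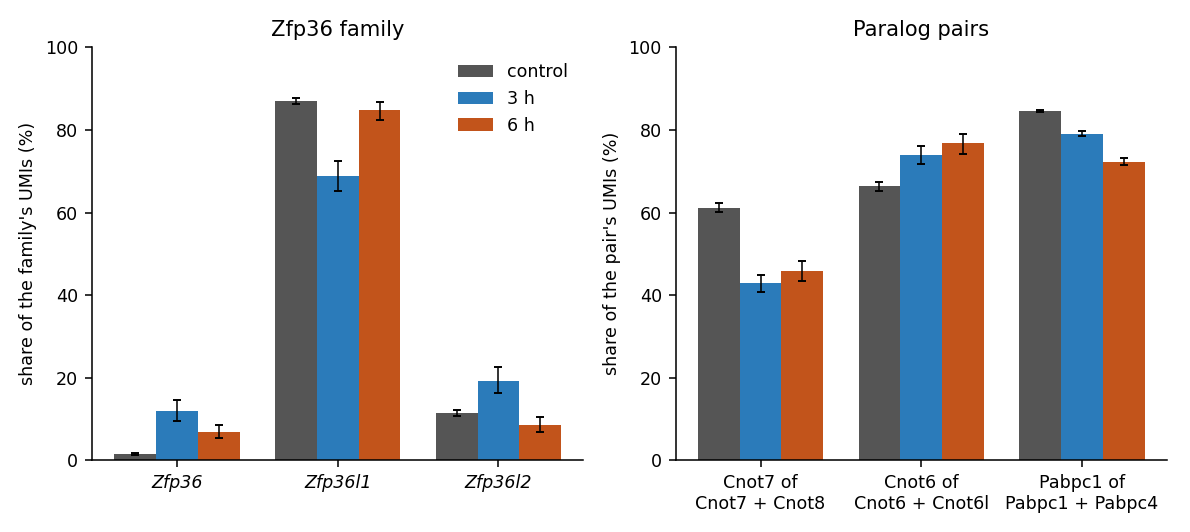
Share of UMIs (%) that each gene of the Zfp36 family supplied (left) and that Cnot7, Cnot6 and Pabpc1 supplied of their paralog pairs (right) in the control, 3 h and 6 h libraries; bars are single libraries with Clopper-Pearson 95% counting intervals. Zfp36l1 supplied 86.9%, 68.9% and 84.7% of its family, and Cnot7 61.2%, 42.8% and 45.9% of its pair.

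DCP2 is the enzyme that removes the cap after deadenylation. Dcp2 (ENSMUSG00000024472, chromosome 18, 44380502 to 44424969, plus strand) was at 95.4, 79.1 and 98.1 CPM (control, 3 h, 6 h). The control and 6 h did not differ beyond counting error (log2 interval -0.02 to 0.10), and 3 h was 1.21-fold lower than the control (-0.33 to -0.20). That 3 h log2 ratio, -0.27, was the same as the median of all tested genes, -0.27, and was -0.03 with median-of-ratios factors.

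XRN1 is the 5' to 3' exonuclease that degrades decapped RNA. Xrn1 (ENSMUSG00000032410, chromosome 9, 95954760 to 96057803, plus strand) was at 91.8, 69.8 and 107 CPM (control, 3 h, 6 h), from 9631, 2085 and 2648 UMIs. The 3 intervals did not overlap, with 3 h lowest and 6 h highest. The level was 1.32-fold lower than in the control at 3 h (log2 interval -0.47 to -0.33) and 1.17-fold higher at 6 h (0.16 to 0.29), and 1.54-fold higher at 6 h than at 3 h (0.54 to 0.70). Both signs against the control were the same with median-of-ratios and TMM factors, where the 3 h log2 ratio was -0.15 and -0.20.

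PABPC1, the main cytoplasmic poly(A)-binding protein, coats the tail that deadenylases remove. Pabpc1 (ENSMUSG00000022283, chromosome 15, 36595661 to 36609668, minus strand) was at 809, 435 and 330 CPM (control, 3 h, 6 h), from 84826, 13003 and 8138 UMIs. The intervals, 803 to 814, 428 to 443 and 323 to 337 CPM, did not overlap, and the level was lower at each later time. It was 1.86-fold lower than in the control at 3 h (log2 interval -0.92 to -0.87), 2.45-fold lower at 6 h (-1.33 to -1.26) and 1.32-fold lower at 6 h than at 3 h (-0.44 to -0.36). At 6 h, 1.51% of tested genes had a lower ratio than Pabpc1. Retrocopies of Pabpc1 exist in the mouse genome, and how reads shared with them were assigned is not given in the sources used here.

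Pabpc4, a related cytoplasmic protein, differed less from its control level. Its mRNA was at 146, 115 and 126 CPM, and Pabpc1 supplied 84.7% (84.4 to 84.9%), 79.1% (78.5 to 79.7%) and 72.3% (71.5 to 73.2%) of the UMIs of this pair. Pabpn1, which binds the tail in the nucleus, was at 283, 528 and 494 CPM (control, 3 h, 6 h), with log2 ratios of 0.89 and 0.80. In CPM the cytoplasmic Pabpc1 and the nuclear Pabpn1 thus lay on opposite sides of the control at both times. In UMIs per cell both were lower after treatment, Pabpn1 at 14.6, 6.67 and 4.17 and Pabpc1 at 41.8, 5.50 and 2.78.

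Cells were then compared after drawing 4000 UMIs from each, with 0, 122 and 284 shallower cells left out (control, 3 h, 6 h). At this depth Zfp36l1 was seen in 24.2% (22.3 to 26.1%), 5.71% (4.78 to 6.75%) and 12.1% (10.9 to 13.5%) of cells, and without thinning in 92.7%, 15.8% and 23.8%. Any of the 3 Zfp36 family genes was seen in 26.7%, 8.29% and 14.1% of thinned cells. Pabpc1 was seen in 94.9% (93.9 to 95.8%), 81.9% (80.3 to 83.5%) and 71.2% (69.4 to 72.9%) of thinned cells, and without thinning in 100%, 97.6% and 89.0%. No cell type without these genes was identified in the libraries, so the free RNA in barcodes outside the called cells was taken as the background. There Zfp36l1 stood at 68.1, 13.3 and 29.8 CPM and Pabpc1 at 763, 414 and 397 CPM (control, 3 h, 6 h). In the cells Zfp36l1 was at 71.9, 15.2 and 35.0 CPM and Pabpc1 at 809, 435 and 330 CPM. At 6 h Pabpc1 was thus higher outside the cells than in them, and outside them its 3 h and 6 h levels differed less.

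The ratio of variance to mean of the thinned UMIs was 1.04 in each library for Zfp36l1 and 1.15, 1.07 and 1.04 for Pabpc1, where 1 is the value of pure counting. At the low mean of Zfp36l1, at most 0.282 UMIs per thinned cell, this ratio says little about differences between cells. Exactly 2 Zfp36l1 UMIs were seen in 61, 7 and 21 thinned cells. Those with 5 or more Pabpc1 UMIs made up 22.1%, 3.74% and 1.14%.

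The cells of each library were also divided into 3 equal parts by their UMIs. Zfp36l1 was at 70.4, 69.1 and 74.6 CPM from the lowest to the highest part of the control, at 17.5, 14.05 and 15.04 CPM in the 3 h library, and at 30.8, 35.0 and 36.7 CPM in the 6 h library. Every part at 3 h lay below every part at 6 h, and every part at 6 h below every part of the control. Pabpc1 was at 776 to 833 CPM over the parts in the control, 422 to 473 CPM at 3 h and 320 to 349 CPM at 6 h, in the same separate ranges. Xrn1 differed within the control library, from 80.6 CPM in the lowest to 101 CPM in the highest part. Cnot1 in the lowest part at 3 h, 235 CPM, was above both other parts there, 173 and 190 CPM.

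**Figure D4:**
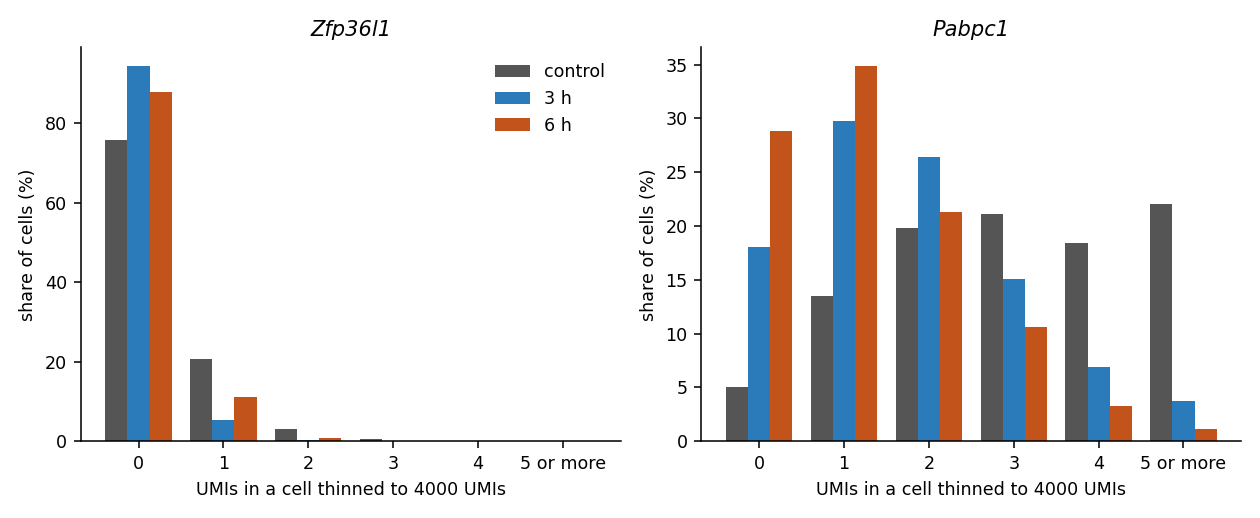
Share of cells (%) by the number of Zfp36l1 UMIs (left) or Pabpc1 UMIs (right) after 4000 UMIs were drawn from each cell, in the control, 3 h and 6 h libraries; bars are single libraries. Cells without a Zfp36l1 UMI made up 75.8%, 94.3% and 87.9%, and the whole Pabpc1 distribution lay lower at 3 h and 6 h.

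The factors were last set beside the rest of the decay machinery, with 9 lists that include the factors themselves, and a list of known AU-rich mRNAs. Of the 95 machinery genes that averaged 10 CPM or more, 4 were at least 2-fold lower and 0 higher at 3 h, a share of 4.21%, and 8 lower and 0 higher at 6 h, 8.42%, and the median log2 ratios were -0.35 and -0.09. Of all tested genes 5.54% and 4.41% were at least 2-fold lower. Zfp36l1 was among the 4 machinery genes at 3 h, and Zfp36l1 and Pabpc1 were among the 8 at 6 h. The listed factors were picked with these ratios known, so nothing is read from the shares. With the AU-rich mRNAs the counts were 6 of 103 at 3 h, 5.83%, and 8 at 6 h, 7.77%. Among the 12 CCR4-NOT genes 0 passed 2-fold at either time, with medians of -0.18 and 0.00, and Cnot3 had the lowest value at 3 h, -0.82, Cnot6l at 6 h, -0.82, and Cnot8 the highest at both, 0.49 and 0.31. Among the 4 tested BTG and TOB genes 0 passed, with medians of -0.53 and -0.57, Btg3 lowest at both times (-0.79 and -0.84) and Btg1 highest (-0.05 and 0.55).

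Of the 12 tested genes for proteins that bind AU-rich or other specific mRNA sequences, Zfp36l1 alone was at least 2-fold lower, and the medians were -0.25 and 0.03. Khsrp, which also promotes decay of AU-rich mRNAs, had the highest ratio, 0.27 at 3 h and 0.75 at 6 h, and Elavl1, which protects such mRNAs, was at -0.05 and -0.23. Zc3h12a, the RNase known as Regnase-1, which had a mean under 10 CPM, was at 7.25, 1.47 and 4.98 CPM (control, 3 h, 6 h), from 760, 44 and 123 UMIs; it was singled out after its values were seen.

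Of the 6 tested genes on a list of other deadenylases, their subunits and relatives, 0 passed 2-fold at 3 h. At 6 h 3 were lower, Noct, Toe1 and Pde12. The medians were -0.61 and -0.94, beside -0.27 and -0.12 for all tested genes. Of all tested genes 5.54% were at least 2-fold lower at 3 h and 4.41% at 6 h. Pde12, which acts in mitochondria, had the lowest 6 h ratio, -1.23, Toe1 the lowest at 3 h, -0.97, and Parn the highest at 6 h, 0.17. Of the 19 decapping and 5' decay genes 1 was lower at 3 h, Lsm1, and 2 at 6 h, Lsm1 and Lsm5, with medians of -0.19 and -0.02. Lsm1, a subunit of the cytoplasmic ring that activates decapping, was at 79.3, 36.5 and 34.2 CPM, and Lsm7 had the highest ratios, 0.53 and 0.60. Dcp2 and Xrn1 lay inside the range of this list, and Xrn1 had its highest ratio from 3 h to 6 h, 0.61.

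Of the 8 genes around poly(A) binding 1 was lower at 3 h, Gspt2, and 1 at 6 h, Pabpc1, with medians of -0.41 and -0.22. For this and the next lists, the share of all tested genes at least 2-fold lower was 5.54% at 3 h and 4.41% at 6 h. Of the 16 exosome and SKI genes, which degrade RNA from its 3' end, 1 was lower at both times, Exosc3, at 60.9, 24.0 and 21.8 CPM, and the medians were -0.40 and -0.25, while Exosc5 had the highest ratios, 0.33 and 0.70. Among 9 genes of nonsense-mediated decay 0 passed, with medians of -0.20 and 0.18, and among 9 of miRNA silencing 0 passed, with medians of -0.40 and -0.23. The genes furthest apart in those lists were Upf3a, at -0.67 and -0.52, Upf2, at 0.51 at 6 h, Smg5, at 0.12 at 3 h, Dgcr8, at -0.92 at 3 h, Ago1, at -0.46 at 6 h, and Dicer1, at 0.07 and 0.35.

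The last list held 25 mRNAs known to carry AU-rich elements, of which 8 averaged 10 CPM or more. At 3 h 2 of the 8 were at least 2-fold lower, Junb and Pim1, and 0 higher, with a median of -0.75. At 6 h 0 of the 8 passed, with a median of -0.44. Of all tested genes 5.54% and 4.41% were at least 2-fold lower at these times. Listed mRNAs under 10 CPM on average were left out of these counts. Among those, Myc was at 16.2, 3.41 and 2.71 CPM (control, 3 h, 6 h) and Egr1 at 11.5, 5.59 and 1.34 CPM. Dusp1 was at 9.69, 2.68 and 2.15 CPM, while Lif was at 0.305, 0.502 and 0.810 CPM. Myc, Egr1, Dusp1 and Lif were not chosen by a rule set beforehand. The other listed mRNAs under 10 CPM, such as Ier3, Jun and Vegfa, are not described. Junb, an AP-1 subunit, was at 42.3, 11.5 and 30.5 CPM (control, 3 h, 6 h), with log2 ratios of -1.79 and -0.46, lowest at 3 h and higher again at 6 h as Zfp36l1 was. Among the 8, Ccnd1, the cyclin D1 gene, had the highest ratios, 0.72 and 0.55, and Plaur the lowest at 6 h, -0.99. Of the 103 tested genes over all lists, 3 were at least 2-fold higher at 6 h than at 3 h, Zfp36l1, Junb and Cdkn1a. This is 2.91%, beside 1.64% of all tested genes, and 0 were at least 2-fold lower. Zfp36l1 was the 1 among the 95 machinery genes, or 1.05%.

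**Figure D5:**
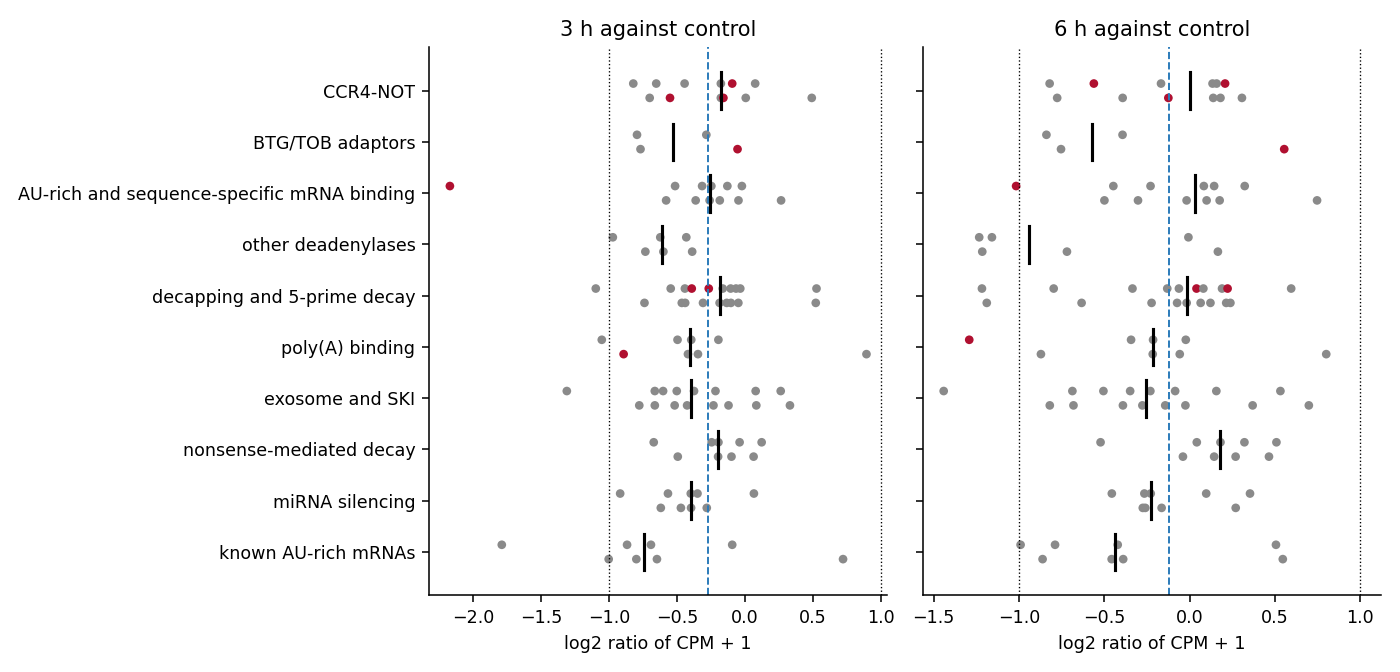
Log2 ratio of CPM + 1 against the control at 3 h (left) and 6 h (right) for the tested genes of 10 mRNA decay lists; the listed decay factors are red, black bars are list medians, the dashed line is the median of all tested genes and dotted lines mark 2-fold. At 3 h Zfp36l1, at -2.17, lies below the other tested genes of its list. Zc3h12a of the same list, at -1.74, has a mean under 10 CPM and is not shown. At 6 h Pabpc1, at -1.29, is the lowest of the tested poly(A) binding genes.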

How the data were processed

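The authors deposited UMI counts, not normalized, as Cell Ranger 7.1.0 wrote them, per the file headers; mm10 is named in the submitters' processing notes. The annotation and the treatment of intronic reads are not given in the sources used here. The authors deposited 1817054, 617590 and 802370 barcodes (control, 3 h, 6 h) without a cell filter. A barcode was called a cell when its UMIs reached the 99th percentile of the 3000 largest barcodes divided by 10, when it had 500 genes or more, and when mitochondrial UMIs did not exceed 20%. Doublets were kept. Symbols carried by several identifiers were taken from the one with most UMIs.

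UMIs were summed over cells and scaled to CPM. Ratios are log2 of CPM + 1, and counting intervals of the ratio without pseudocount are exact conditional binomial. No test was run. The scripts were tested on simulated counts. Thinning drew 4000 UMIs per cell, the 10th percentile of the shallowest library. TMM factors came from edgeR 4.0.16. Alternatives covered scaling, cell choice, free RNA, pseudocount and filters.

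The members, lists and rules were chosen with earlier results of these data known. By rule, named genes are the members, each list's extreme genes, the paralogs Cnot6l, Cnot8, Pabpc4, Btg2, Tob1 and Tob2, and the 3 nearest genes in pattern to Zfp36, Zfp36l1, Zfp36l2 and Btg1. Outside this rule, list genes past 2-fold, the elongation factor genes and Tpt1 are named. So are Zc3h12a, Myc, Egr1, Dusp1 and Lif. Positions and 3' untranslated regions came from GENCODE M21 (32158 of 32285 identifiers found), and promoters from RefSeq. Python 3.11.15, numpy 2.4.6, pandas 2.3.3 and scipy 1.17.1 were used.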

Additional observations from a re-analysis of the deposited data

Results flagged for a closer look

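Opposite differences from the control at 3 h and 6 h, each beyond counting error, were seen for 6 of the genes whose ratios are given; the difference between the times was not tested. Xrn1 had log2 ratios of -0.39 at 3 h and 0.22 at 6 h. Cnot1 had -0.0938 and 0.21, of which the 3 h value changed sign with median-of-ratios factors, TMM factors and equal weight for each cell. Parn, a poly(A)-specific ribonuclease, had -0.43 and 0.17, and Upf2, a factor of nonsense-mediated decay, had -0.20 and 0.51. The 3 h value of Upf2 was 0.04 with median-of-ratios and -0.0087 with TMM factors, so its opposite sign depends on the scaling. Cdkn1a, the p21 gene, had -0.69 and 0.51, and Tpt1 had 0.10 and -0.41. The median of all tested genes was -0.27 at 3 h and -0.12 at 6 h.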

How the results depend on the processing

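Without replicate libraries no replicate could be left out. No paired analysis was possible because each condition has 1 library. The shares within the Zfp36 family moved by less than their counting error under the 4 other choices of cells and the free-RNA subtraction. Members at least 2-fold lower at 3 h numbered 1, and 2 with the doubled UMI minimum, the 10% mitochondrial limit, free RNA subtracted or a pseudocount of 0.1 CPM, Zfp36l2 being at the 2-fold line. With 0.1 CPM added, 1 member, and not 0, was at least 2-fold higher at 6 h. From 3 h to 6 h 0 members, and not 1, were higher with median-of-ratios factors, TMM factors and UMIs per cell. UMIs per cell, which add depth to each ratio, put 9 members lower at 3 h and 9 at 6 h. The 6 h count was 2, and not 3, with the doubled UMI minimum or free RNA subtracted.

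List genes lower at 3 h numbered 3 with median-of-ratios and with TMM factors, 103 with UMIs per cell, 1 at a mean of at least 50 CPM and 11 without a filter or at a mean of at least 1 CPM (a filter added after seeing the data), and 1 was higher with either set of factors. At 6 h 103 were lower with UMIs per cell, 3 at 50 CPM and 13 without a filter or at 1 CPM. From 3 h to 6 h 1 was lower with median-of-ratios factors, TMM factors, equal weight per cell, no filter or the 1 CPM filter and 3 with UMIs per cell, and 1 was higher with either set of factors, 0 with UMIs per cell and 0 at 50 CPM. All tested genes at least 2-fold lower and higher at 3 h numbered 437 and 70, and 166 and 139 with median-of-ratios and 202 and 126 with TMM factors; from 3 h to 6 h they numbered 13 and 129, and 45 and 57 with either. Median-of-ratios factors moved the median gene from -0.27 to -0.04 at 3 h.

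Cells with a Zfp36l1 UMI made up 92.7%, 15.8% and 23.8% without thinning and 12.5%, 2.88% and 6.15% at 2000 UMIs, and with a Pabpc1 UMI 100%, 97.6% and 89.0%, and 78.9%, 60.2% and 45.7% (control, 3 h, 6 h), with the order of the libraries unchanged.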

Other observations

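Pabpc1 belongs to the mRNAs with a 5' terminal oligopyrimidine tract, as do the ribosomal protein and elongation factor genes, and these were looked at after its values were seen. Over the 81 tested genes with symbols of the cytosolic ribosomal protein form, the medians of the log2 ratios were 0.31 (3 h) and 0.05 (6 h). The ratios ranged from -0.73 to 1.05 and from -1.06 to 1.18, against -0.89 and -1.29 for Pabpc1. The symbol form also admits like-named paralogs, and no gene was checked for the tract. Eef1a1 was at -0.05 and -0.37, Eef1b2 at 0.00 and -0.34, Eef1d at 0.15 and 0.25, Eef2 at 0.65 and 0.53, and Tpt1 at 0.10 and -0.41. Of the 81 genes taken by symbol 0 were at least 2-fold lower at 3 h and 1 at 6 h.

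Genes were also grouped after the fact by the number of TTATTTATT sites in the longest annotated 3' untranslated region. Of 7651 tested genes with such a region, 7057 had 0 sites, with a median of -0.27 for the 3 h ratio, 457 had 1, with -0.43, 85 had 2, with -0.33, and 52 had 3 or more, with -0.37. At 6 h the medians were -0.12, -0.22, -0.17 and -0.12. Genes with sites had longer regions, with a median of 2425 bases for 1 site against 1047 for 0. Within regions from 500 to under 1500 bases the 3 h medians for 0 and 1 site were -0.27 and -0.41 (111 genes with 1 site), with 6.10% and 12.6% at least 2-fold lower. From 1500 to under 3000 bases the medians were -0.33 and -0.34, with 4.46% and 11.0% at least 2-fold lower. From 3000 bases they were -0.38 and -0.49, with 6.37% and 6.01%, so the shares did not differ in 1 direction throughout. In the same order of length, genes with 2 sites had 3 h medians of -0.58, -0.22 and -0.39 (13, 27 and 43 genes). Those with 3 or more had -0.20, -0.32 and -0.45 (7, 18 and 26 genes). Zfp36l1, with 1 site, was at -2.17. These are descriptions over genes and not tests.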
